A study of Homo sapiens with 12 samples.

Results

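The genes described here encode the proteins of the cytosolic ribosome, the particle that translates messenger RNA outside the mitochondria. They were picked by gene symbol: RPL or RPS followed by a digit, with RPLP0, RPLP1, RPLP2 and RPSA added and the RPS6K kinases left out. In the platform annotation 80 of the 14884 named genes fitted. Of these, 53 encode ribosomal proteins, 23 carry a pseudogene symbol and are kept apart, and 4 match the letters only (RPL26L1-AS1, RPL34-DT, RPL36A-HNRNPH2 and RPS19BP1). The 53 coding genes comprise 45 canonical genes and 8 paralogues, which are second copies of a canonical gene elsewhere in the genome, and 18 belong to the small and 35 to the large subunit.

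The arrays were hybridised with RNA from Ishikawa cells, an established line from a human endometrial adenocarcinoma. The labels name 4 groups with 3 arrays each: control ERα(-), shMOF ERα(-), control ERα(+) and shMOF ERα(+). KAT8 encodes MOF, a histone acetyltransferase that shMOF cells carry a short hairpin RNA against, and ESR1 encodes ERα, a receptor for oestrogen. How ERα(-) and ERα(+) were made, the hairpin's sequence, the number of clones and where the replicates came from were not given in the sources used here. Every p-value thus speaks only of the spread among these arrays, and that spread may be technical. The title of the series asks about a feedback between MOF and ERα, and the values below show how the ribosomal protein genes stood under each label.

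Ribosomal proteins form a small subunit, which reads the message, and a large subunit, which joins amino acids. Their messages are among the most abundant in a growing cell, and many begin with a C followed by an unbroken run of pyrimidines, the 5′ terminal oligopyrimidine tract (TOP), through which mTOR and LARP1 control their translation together. A group of ribosomal proteins, RPL11 and RPL26 among them, binds MDM2 when ribosome assembly fails and so steadies p53. Loss of 1 copy of genes such as RPS19 causes Diamond-Blackfan anaemia.

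The start windows show what most of the members share by sequence. The RefSeq start sequences used here (GRCh38.p14) covered 48 of the 53 coding genes. A start at C followed by at least 4 further C or T bases was searched on the gene's own strand, with no other motif. It was found in 31 of the 48 (64.6%), against 5.14% of all 27305 genes covered. Among the canonical genes it stood in 30 of 42 (71.4%), and among the paralogues in 1 of 6 (16.7%). A tract beginning within 5 bases of the start was found in 37 of the 48 (77.1%), against 25.2% of all genes. The windows below run from 20 bases before the start to 20 bases from it on, 5′ to 3′, with the tract in capitals, and are shown for genes described below and for paralogue pairs that do and do not share the tract.
RPL39 (chrX:119791611-119791650, minus strand): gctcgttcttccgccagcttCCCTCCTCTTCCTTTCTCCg
RPL28 (chr19:55385912-55385951, plus strand): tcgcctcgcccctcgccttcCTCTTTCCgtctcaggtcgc
RPS16 (chr19:39435930-39435969, minus strand): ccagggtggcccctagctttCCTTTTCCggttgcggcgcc
RPL36 (chr19:5690275-5690314, plus strand): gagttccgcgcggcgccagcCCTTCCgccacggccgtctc
RPS6 (chr9:19380217-19380256, minus strand): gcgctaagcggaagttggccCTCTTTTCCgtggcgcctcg
RPS26 (chr12:56041898-56041937, plus strand): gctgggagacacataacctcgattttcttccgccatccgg
RPL22 (chr1:6199576-6199615, minus strand): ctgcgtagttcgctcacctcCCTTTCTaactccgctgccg
RPL22L1 (chr3:170870176-170870215, minus strand): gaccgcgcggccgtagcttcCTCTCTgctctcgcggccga
RPS27 (chr1:153990742-153990781, plus strand): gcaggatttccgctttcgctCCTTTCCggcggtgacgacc
RPS27L (chr15:63157458-63157497, minus strand): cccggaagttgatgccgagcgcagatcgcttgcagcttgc
RPL39 held the tract with 19 bases and RPL36 one with 6, while the windows of RPS26 and RPS27L held none within 5 bases of the annotated start. RPL22 and its paralogue RPL22L1 both began with a tract, whereas RPS27 did and its paralogue RPS27L did not. A missing tract says only that the letters are absent from that window of the annotation.

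The values are log2 signals of probe sets, normalised together, and a probe set's level depends on its own probes, so levels of different genes are no order of abundance. The annotation named a probe set for 45 of the 77 canonical genes that fit the rule. Among the 32 others were the 3 genes of the stalk that recruits elongation factors (RPLP0, RPLP1, RPLP2), RPSA, RPL5, RPL23, RPL3, RPL4, RPL7A and RPL13A, and these were not analysed here. Means over the 12 arrays ran from 2.79 for RPL10L, a testis paralogue, to 12.70 for RPL41, the shortest ribosomal protein, with medians of 7.93 for canonical genes and 6.33 for paralogues against 5.66 for all tested genes. Of the 53 coding genes, 21 lay at or above the 90th percentile of tested genes and 4 below the 50th. The spread within groups was smallest for RPS6 (pooled SD 0.038) and largest for RPL31 (0.33).

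Over all genes the arrays correlated at 0.965 to 0.994, and the first principal component held 36.8% of the variance. KAT8, the gene the hairpin targets, read 6.76, 6.87 and 6.68 in control ERα(-), 6.78, 6.76 and 6.72 in shMOF ERα(-), 6.80, 6.60 and 6.81 in control ERα(+), and 6.66, 6.66 and 7.02 in shMOF ERα(+). Its values overlapped between control and shMOF in both conditions (differences of -0.02 ± 0.13 and 0.04 ± 0.13, SE, on the log2 scale), so the KAT8 probe set does not separate the labels, and the groups below are those of the arrays labelled shMOF. ESR1 read 4.43, 4.12 and 4.28 in control ERα(-) and 4.40, 4.65 and 4.32 in control ERα(+), a difference of 0.18 ± 0.12 with overlapping groups. It read 4.52, 4.39 and 4.34 in shMOF ERα(-) and 4.28, 4.27 and 4.27 in shMOF ERα(+), a difference of -0.15 ± 0.12. There every ERα(+) array lay below every ERα(-) array, against the label, so the ESR1 probe set does not follow the ERα labels, and limma called neither gene in any comparison (adjusted p from 0.322 to 0.993 over both). Epithelial markers were present (7 of 10 measured, median level 8.30, EPCAM at 11.53). The 3 measured stromal markers (DCN, LUM, THY1) had a median level of 2.20, and their means lay between 2.92 and 3.24 on every array. Means of the 4 measured immune or endothelial markers lay between 4.55 and 5.07.

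**Figure D1:**
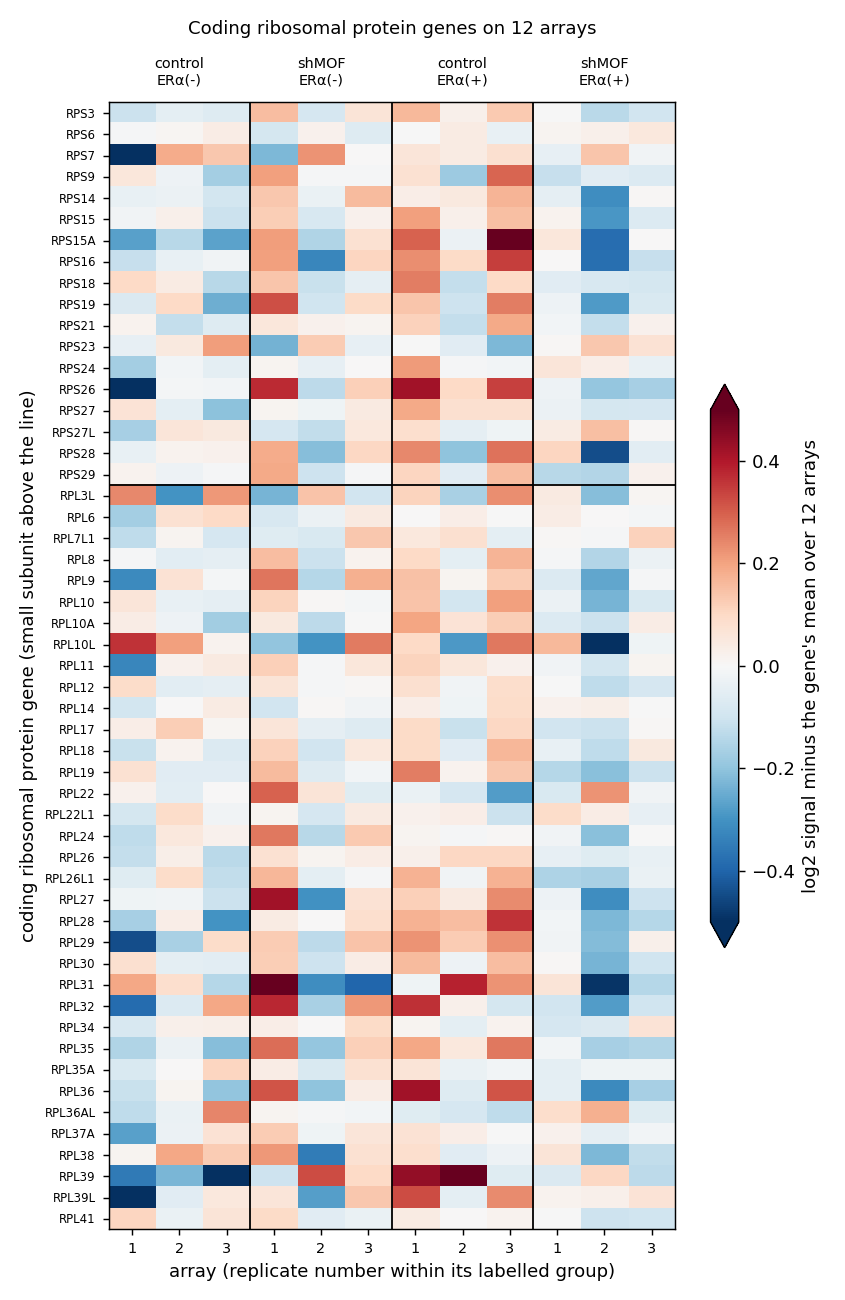
Heat map of the 53 coding ribosomal protein genes (rows, small subunit above the line) on the 12 arrays (columns, by labelled group and replicate number); colour is the log2 signal minus the gene's own mean over the 12 arrays, and 8 of the 636 cells lie past the ends of the scale at 0.5. The column of shMOF ERα(+) replicate 2 is mostly blue, with 41 of 53 genes below their own mean, and that of control ERα(+) replicate 1 mostly red, with 48 above.

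As a set, the coding genes stood highest on the control ERα(+) arrays and lowest on the shMOF ERα(+) arrays. Each gene was set against its own mean, and the median over the 53 was taken on each array. In control ERα(-) that median was -0.076, -0.0078 and -0.018, in shMOF ERα(-) 0.12, -0.077 and 0.045, in control ERα(+) 0.11, -0.0057 and 0.13, and in shMOF ERα(+) -0.013, -0.13 and -0.034. The group means were -0.034 ± 0.037, 0.029 ± 0.099, 0.077 ± 0.072 and -0.058 ± 0.061 (SD, n = 3) in that order. All 3 control ERα(+) arrays lay above all 3 shMOF ERα(+) arrays, the nearest at -0.0057 and -0.013. Taken over all tested genes, the median was 0.0058, -0.0010 and 0.042 in control ERα(+) and -0.0041, -0.037 and -0.00054 in shMOF ERα(+). For the coding genes the shMOF ERα(-) arrays ran from near the lowest to near the highest value. The SD of arrays within a group, pooled over the groups, was 0.0706, so the 4 compared pairs of group means lay 0.892 to 1.91 such SDs apart.

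The first principal component over all tested genes moved with this median. It was lowest on shMOF ERα(+) replicate 2 (-29.8) and shMOF ERα(-) replicate 2 (-18.0) and highest on control ERα(+) replicate 3 (32.9) and shMOF ERα(-) replicate 1 (22.3), and the same arrays held the lowest 2 and the highest 2 values of the ribosomal median. With that component as a covariate, the medians of the 4 group comparisons described below lay between -0.010 and 0.015. The component was computed from all tested genes, the members among them, and itself differed between the groups. Adding it therefore takes out part of any group difference, and these values cannot tell what the difference comes from. In bulk RNA, fewer cells with a message and less of it per cell cannot be told apart.

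**Figure D2:**
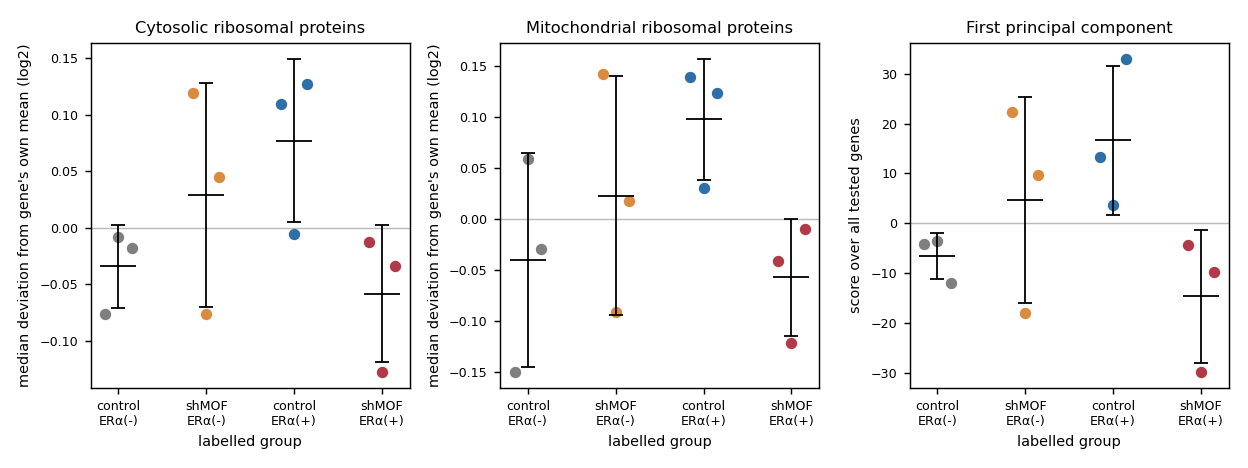
Median deviation from each gene's own mean (log2) of the 53 cytosolic (left) and 73 mitochondrial (middle) ribosomal protein genes, and the score of the first principal component (right), for each array; horizontal bars with whiskers are group means ± SD of 3 arrays. In all 3 panels shMOF ERα(+) replicate 2 is the lowest or next to the lowest array and the control ERα(+) group has the highest mean.

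The members also varied together within groups. After the group means were removed, the mean correlation between pairs of coding genes over the 12 arrays was 0.235, with 0.206 inside the small and 0.239 inside the large subunit. Between pairs of all tested genes it was 0.00384, between the 23 pseudogene symbols 0.0163, and between the 73 mitochondrial ribosomal proteins 0.252. These pairs share their arrays, their RNA and their normalisation, and the values are given as a description. RPS3, of the small subunit's head, had the highest mean correlation with the other coding genes (0.46) and RPL36 followed (0.452). RPS6, the substrate of the S6 kinases, had the lowest (-0.357), with RPL39 at -0.308 and RPS23 at -0.265. Within groups these genes thus ran against the rest from array to array. Between groups RPL39 did not: its difference had the sign of the coding median in every comparison described below. The differences of RPS6 and RPS23 had the opposite sign in each. The values of RPS6 stayed between 8.46 and 8.60 on all 12 arrays (pooled SD 0.038), so its correlation rests on small deviations.

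In ERα(-), the difference of the arrays labelled shMOF from control had a median of 0.066 over the coding genes on the log2 scale, beside -0.0026 over all tested genes. Of the 53, 39 lay above 0 (49.4% of all genes) and 14 below (50.6%). limma called 0 of them at an adjusted p below 0.05 (0% of all genes), and the smallest adjusted p was 0.953. At an unadjusted p below 0.05 there was 1 higher gene, RPL39, and 0 lower, against 2.10% and 2.68% of all genes. RPL39 was also the 1 coding gene whose groups did not overlap, in the higher direction (4.11% of all genes), and 0 did not overlap in the lower one (4.66%).

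RPL39, a small protein of the large subunit's exit tunnel, read 7.59, 7.72 and 7.42 in control ERα(-) and 7.85, 8.27 and 8.05 in shMOF ERα(-). Every shMOF array lay above every control array, a difference of 0.48 ± 0.16 (SE; 1.39-fold) with an adjusted p of 0.953, while the other probe set named RPL39 gave 0.12 ± 0.13. RPS26, a small subunit protein whose loss causes Diamond-Blackfan anaemia, read 7.42, 8.23 and 8.23 against 8.61, 8.11 and 8.36. Control replicate 1 stood far below the rest, and the difference of 0.40 ± 0.20 was 0.13 without that array. The next smallest p-values were those of RPS15A, at 0.27 ± 0.17, and RPL28, at 0.19 ± 0.12, and the latter was 0.11 without control ERα(-) replicate 3. The median over the coding genes was 0.011 without shMOF ERα(-) replicate 1 and 0.10 without replicate 2 of that group.

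In ERα(+), the same difference had a median of -0.14, beside -0.039 over all tested genes, and 46 of the 53 coding genes lay below 0 (56.2% of all genes). None was called by limma (0 of 53; 0% of all genes; smallest adjusted p 0.223). At an unadjusted p below 0.05 there were 5 lower genes (RPL19, RPL28, RPL36, RPS15A and RPS16) and 0 higher ones, against 8.51% and 10.2% of all genes. The share of lower genes, 5 of 53, is close to that background. In 18 of the 53 all shMOF arrays lay below all control arrays (14.1% of all genes), and in RPL36AL and RPS23 all lay above (12.2%).

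RPL28, a large subunit protein, read 6.41, 6.39 and 6.60 in control ERα(+) and 6.22, 6.01 and 6.09 in shMOF ERα(+). The groups were apart by 0.17 at their nearest, and the difference was -0.36 ± 0.12 (0.780-fold, 95% interval -0.62 to -0.10) with an adjusted p of 0.223. RPS16, a small subunit protein whose tail reaches the tRNA in the P site, read 8.16, 8.03 and 8.28 against 7.93, 7.55 and 7.82. These groups did not overlap either, and the difference was -0.39 ± 0.15 (adjusted p 0.229). RPL19, whose chosen probe set lies high on the scale, read 10.54, 10.30 and 10.42 against 10.14, 10.08 and 10.18, also apart, at -0.29 ± 0.11 (adjusted p 0.231). RPL36 read 10.22, 9.73 and 10.11 against 9.75, 9.48 and 9.63. Here control replicate 2 lay below the highest shMOF array, and the difference was -0.40 ± 0.16 (adjusted p 0.233). With the first principal component added as a covariate these differences were -0.21 for RPL28, -0.019 for RPS16, -0.16 for RPL19 and -0.046 for RPL36.

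RPS23, a decoding-centre protein, went the other way, with 9.36, 9.31 and 9.14 in control ERα(+) and 9.37, 9.50 and 9.43 in shMOF ERα(+). The groups did not overlap, and the difference of 0.16 ± 0.13 had an adjusted p of 0.469. RPS6 read 8.54, 8.59 and 8.51 against 8.56, 8.57 and 8.60, a difference of 0.03 ± 0.10 whose 95% interval ran from -0.18 to 0.24. Leaving out control ERα(+) replicate 2 took the median over the coding genes to -0.22 and the genes at an unadjusted p below 0.05 from 5 to 11. Without control ERα(+) replicate 1, control ERα(+) replicate 3 or shMOF ERα(+) replicate 2 they numbered 2, 3 and 1. How many of all genes passed that threshold in these refits was not counted, so these counts have no background beside them. The 7 measured epithelial markers lay lower as well, with a median of -0.34 and 6 of 7 below 0 (KRT18 -0.43, KRT7 -0.47, EPCAM -0.07), and their mean level ran from 8.35 to 8.61 in control ERα(+) and from 8.01 to 8.31 in shMOF ERα(+). Their part in the ribosomal values was not tested.

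**Figure D3:**
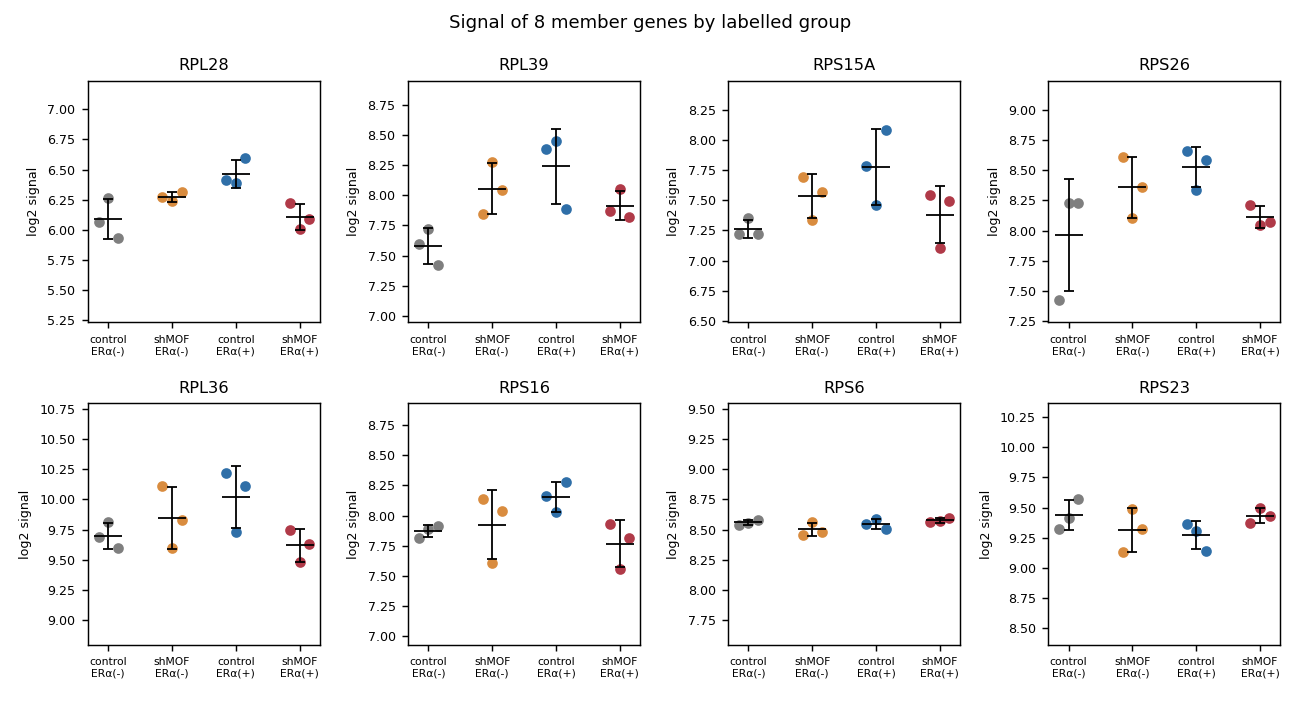
Log2 signal of 8 coding genes on each array by labelled group (points), with group means ± SD of 3 arrays; every panel spans 2 log2 units around the gene's own mean. RPL28, RPS15A, RPL36 and RPS16 have their highest mean in control ERα(+), RPS26 has a single low control ERα(-) array at 7.42, and RPS6 is flat between 8.46 and 8.60.

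Among control arrays, ERα(+) minus ERα(-) had a median of 0.12 over the coding genes, beside -0.0024 over all, and 43 of the 53 lay above 0 (49.6% of all genes) and 10 below (50.4%). limma called 0 (0% of all genes; smallest adjusted p 0.333). At an unadjusted p below 0.05 there were 6 higher genes, RPL28, RPL29, RPL35, RPL39, RPS15A and RPS26, and 0 lower ones, against 6.34% and 6.38% of all genes. In 13 the ERα(+) arrays all lay above the ERα(-) arrays (10.3% of all genes), and in 0 all below (8.92%). This comparison shares its ERα(+) control arrays with the previous one, so the opposite sides on which genes such as RPL28 and RPS16 lie there are not separate observations.

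RPL39 read 8.39, 8.45 and 7.89 in control ERα(+) against 7.59, 7.72 and 7.42 in control ERα(-). The nearest arrays were 0.17 apart, and the difference was 0.66 ± 0.16 (1.59-fold, 95% interval 0.31 to 1.02), with an adjusted p of 0.333. The other probe set named RPL39 gave 0.022 ± 0.13. RPL28 read 6.41, 6.39 and 6.60 against 6.07, 6.27 and 5.93, apart at 0.38 ± 0.12 (adjusted p 0.333). RPS15A, a small subunit protein, read 7.79, 7.46 and 8.09 against 7.22, 7.35 and 7.22, at 0.51 ± 0.17 (adjusted p 0.333), and the 3 ERα(+) arrays were more spread than the 3 ERα(-) arrays. RPS26 read 8.66, 8.34 and 8.58 against 7.42, 8.23 and 8.23, apart at 0.57 ± 0.20, and at 0.30 without control ERα(-) replicate 1. Without control ERα(+) replicate 3 the coding genes at an unadjusted p below 0.05 numbered 3, and the share of all genes was not counted in that refit. With the first principal component added as a covariate RPS15A stood at 0.19. Over all alternative fits of this comparison RPS15A ran from 0.19 to 0.67 and RPS26 from 0.30 to 0.70. RPL28 ran from 0.26 to 0.47 and RPL39 from 0.022 to 0.93.

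Among the arrays labelled shMOF, ERα(+) minus ERα(-) had a median of -0.088 over the coding genes, beside -0.026 over all, and 41 of the 53 lay below 0 (55.0% of all genes). limma called 0 (0% of all genes; smallest adjusted p 0.746), and at an unadjusted p below 0.05 there were 0 higher and 0 lower genes (2.52% and 2.81% of all genes). In 6 (RPL10, RPL19, RPL26, RPL28, RPS27 and RPS9) all ERα(+) arrays lay below all ERα(-) arrays (5.70% of all genes), and in 0 all lay above (3.80%). Among the smallest p-values was that of RPS14, the gene lost with chromosome arm 5q in a myelodysplastic syndrome, at 6.81, 6.54 and 6.86 in shMOF ERα(+) against 6.99, 6.82 and 7.01. Those groups overlapped at -0.20 ± 0.12 (adjusted p 0.746), and the value was -0.11 without shMOF ERα(+) replicate 2. RPL32 at -0.30 ± 0.18, RPS19 at -0.23 ± 0.15 and RPL19 at -0.18 ± 0.11 had the same adjusted p. Without shMOF ERα(-) replicate 1 these read -0.19, -0.13 and -0.11, and the median over the coding genes was -0.052 without shMOF ERα(+) replicate 2.

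The interaction takes the shMOF-minus-control value of ERα(-) away from that of ERα(+) and tests whether the shMOF label went with different values in the 2 conditions. Its median over the coding genes was -0.20, beside -0.031 over all, and 42 of the 53 lay below 0 (53.5% of all genes). limma called 0 (0% of all genes; smallest adjusted p 0.219). At an unadjusted p below 0.05 there were 7 lower genes, RPL28, RPL29, RPL35, RPL36, RPL39, RPS15A and RPS26, and 0 higher ones, against 8.69% and 9.35% of all genes. The smallest p-values belonged to RPL39 at -0.80 ± 0.23 and RPL28 at -0.55 ± 0.17 (adjusted p 0.219 for both), and to RPS26 at -0.81 ± 0.28 and RPS15A at -0.67 ± 0.24 (adjusted p 0.223 for both). RPL39 stood at -0.17 ± 0.19 by its other probe set. RPL36 stood at -0.55 ± 0.22. RPL35, next to the exit tunnel, stood at -0.48 ± 0.19 and RPL29 at -0.48 ± 0.20. With the first principal component added as a covariate RPS15A was at -0.081, RPL28 at -0.34, RPS26 at -0.49 and RPL39 at -1.29. The count of 7 was 15 without shMOF ERα(-) replicate 2 and 4 without replicate 1 of that group. The share of all genes at that threshold was not counted in these refits, so the counts of 15 and 4 have no background beside them. Over all tested genes the 0 called here became 570 without shMOF ERα(-) replicate 2, and without the same array 5, 30, 4 and 11 in the other comparisons in the order above. Without shMOF ERα(+) replicate 1 the interaction had 11 called, and without control ERα(+) replicate 3 it had 1.

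Whether a member counted as called rested on how the arrays were weighted. With array quality weights from limma in place of equal weights, the coding genes called numbered 1 (RPL39), 6, 1 (RPL39), 0 and 12 in the order of the 5 comparisons above. The genes called among all tested were then 645, 1629, 217, 1918 and 3258. Under these weights RPL36 stood at -0.52 and RPL19 at -0.35 for shMOF in ERα(+) (adjusted p 0.0258 and 0.0292).

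**Figure D4:**
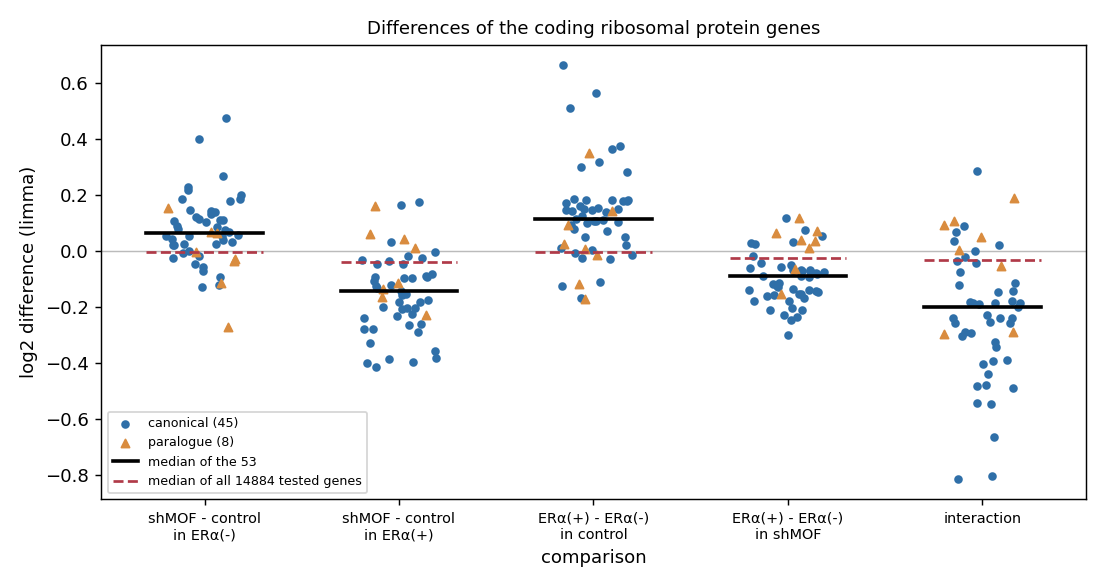
Log2 difference of each coding gene in the 5 comparisons (45 canonical genes as circles, 8 paralogues as triangles), with the median of the 53 as a solid bar and that of all 14884 tested genes as a dashed bar. The solid bars stand at 0.066, -0.14, 0.12, -0.088 and -0.20 from left to right, and the paralogues spread to both sides of 0 in each column.

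The small and large subunits gave like values. Small subunit genes had medians of 0.072, -0.17, 0.14, -0.12 and -0.25 over the 5 comparisons, in the order in which they were described. For the large subunit they were 0.056, -0.13, 0.11, -0.082 and -0.19. The 7 measured genes whose proteins bind MDM2 (RPL11, RPL26, RPS3, RPS7, RPS14, RPS27 and RPS27L) had medians of 0.12, -0.13, 0.15, -0.088 and -0.24, and 0 of them passed an unadjusted p below 0.05 in any comparison. RPL11 read 9.73, 10.08 and 10.10 in control ERα(-), 10.17, 10.05 and 10.11 in shMOF ERα(-), 10.17, 10.11 and 10.08 in control ERα(+), and 10.04, 9.96 and 10.07 in shMOF ERα(+). Its first control ERα(-) array was its lowest, and its shMOF difference in ERα(+) was -0.09 ± 0.12 although the groups did not overlap. RPL26 stood at -0.13 ± 0.10 and RPS3 at -0.18 ± 0.11 in that comparison.

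Of the 20 genes listed for Diamond-Blackfan anaemia, 15 were measured. All 15 lay below 0 for shMOF in ERα(+) (median -0.18; 56.2% of all genes) and in the interaction (median -0.26; 53.5% of all genes). The 45 canonical genes, which include these 15, had 93.3% and 86.7% below 0 there (medians -0.16 and -0.24). Above 0 lay 14 of 15, both with shMOF in ERα(-) (0.088) and with ERα in the control arrays (0.15), and 13 lay below 0 with ERα in the shMOF arrays (-0.11). At an unadjusted p below 0.05 there were 0, 1, 3, 0 and 3 of them in the same order, and 0 were called. Over all tested genes 4.777%, 18.72%, 12.73%, 5.328% and 18.04% passed that threshold in either direction. RPS19, which reads 10.71 to 11.32 over the arrays, stood at -0.23 ± 0.15 for shMOF in ERα(+), RPS24 at -0.05 ± 0.11 and RPL35A at -0.04 ± 0.10. RPL10, which is mutated in T-cell leukaemia, stood at -0.20 ± 0.12, with 11.59, 11.36 and 11.65 in control against 11.42, 11.21 and 11.37 in shMOF ERα(+). Those groups overlapped by the second control array.

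The paralogues as a group lay near 0. Their medians were -0.018, -0.050, 0.016, 0.038 and 0.025 over the 5 comparisons in the order above, where the canonical genes had 0.075, -0.16, 0.14, -0.11 and -0.24, and 0 of 8 passed an unadjusted p below 0.05 in any of them. The difference between both kinds was not tested. For shMOF in ERα(+), RPL26L1 stood at -0.23 ± 0.12 and its parent RPL26 at -0.13 ± 0.10. RPL39L, expressed in testis and in tumours, stood at -0.14 ± 0.17 and RPL39 at -0.33 ± 0.16. RPL22L1 and RPL22 were at 0.04 ± 0.11 and 0.18 ± 0.13, RPS27L, a p53 target, and RPS27 at 0.06 ± 0.11 and -0.18 ± 0.11, and RPL10L and RPL10 at -0.17 ± 0.21 and -0.20 ± 0.12. RPL36AL stood at 0.16 ± 0.12 with groups that did not overlap, RPL7L1 at 0.01 ± 0.11 and the muscle paralogue RPL3L at -0.11 ± 0.17, and the parents of these 3 had no named probe set.

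RPL39L read 6.36, 6.84 and 6.95 in control ERα(-) and 7.22, 6.85 and 7.13 in control ERα(+). Of the paralogues it had the largest difference in that comparison, 0.35 ± 0.17 with overlapping groups (adjusted p 0.396), and 0.17 without control ERα(-) replicate 1. RPL10L stayed between 2.23 and 3.15 on the 12 arrays, among the dim probe sets, where RMA values carry little information on change.

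The pseudogene symbols had medians of -0.020, 0.089, 0.034, 0.044 and 0.027 over the 5 comparisons, with 0 called. Of the 23, those at an unadjusted p below 0.05 numbered 1, 1, 3, 0 and 4, in both directions together (4.777%, 18.72%, 12.73%, 5.328% and 18.04% of all genes). Their levels ran from 1.95 to 11.28 with a median of 4.95. RPS15AP10 read 5.45, 5.72 and 5.11 in control ERα(+) and 6.06, 6.22 and 5.86 in shMOF ERα(+), all higher, at 0.62 ± 0.18 (adjusted p 0.223), where its parent RPS15A stood at -0.40 ± 0.17 (adjusted p 0.244). RPL29P2 had an interaction of -0.75 ± 0.25 and RPS26P11 one of -0.72 ± 0.27, on the same side as RPL29 at -0.48 and RPS26 at -0.81. Probes for a pseudogene and its parent can take up the same message, and the probes' sequences were not used here. RPL23AP82 and RPL23AP87 held the same values on all 12 arrays and are 1 measurement. Of the symbols that match the letters only, RPL36A-HNRNPH2, a readthrough of neighbouring genes, stood at 0.50 ± 0.14 for shMOF in ERα(+) (adjusted p 0.223), with 6.07, 5.91 and 5.68 against 6.33, 6.40 and 6.45.

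Which probe set stood for a gene mattered for RPL39, RPL19 and RPL41. The second probe set named RPL39 read 6.25, 6.60 and 6.76 in control ERα(-) and 6.62, 6.63 and 6.42 in control ERα(+), a difference of 0.022 ± 0.13 where the chosen one gave 0.66 ± 0.16. That of RPL19 read 8.16, 8.01 and 7.74 against 8.80, 8.68 and 8.67, with no overlap, at 0.75 ± 0.14 where the chosen one gave 0.15 ± 0.11. Its unadjusted p was 8.36e-05 and its adjusted p over all 16098 named probe sets 0.186. RPL41 had 5 probe sets, and for ERα in control arrays they gave -0.027, 0.68, 0.42, 0.55 and 0.035 from the brightest listed set on. The one at 0.68 ± 0.12 read 9.51, 9.33 and 9.32 in control ERα(-) and 10.21, 9.93 and 10.07 in control ERα(+), apart by 0.42, with an unadjusted p of 5.33e-05 and an adjusted p of 0.177. All 4 of the other RPL41 sets and the chosen one lay below 0 for shMOF in ERα(+), at -0.089, -0.39, -0.14, -0.31 and -0.15.

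**Figure D5:**
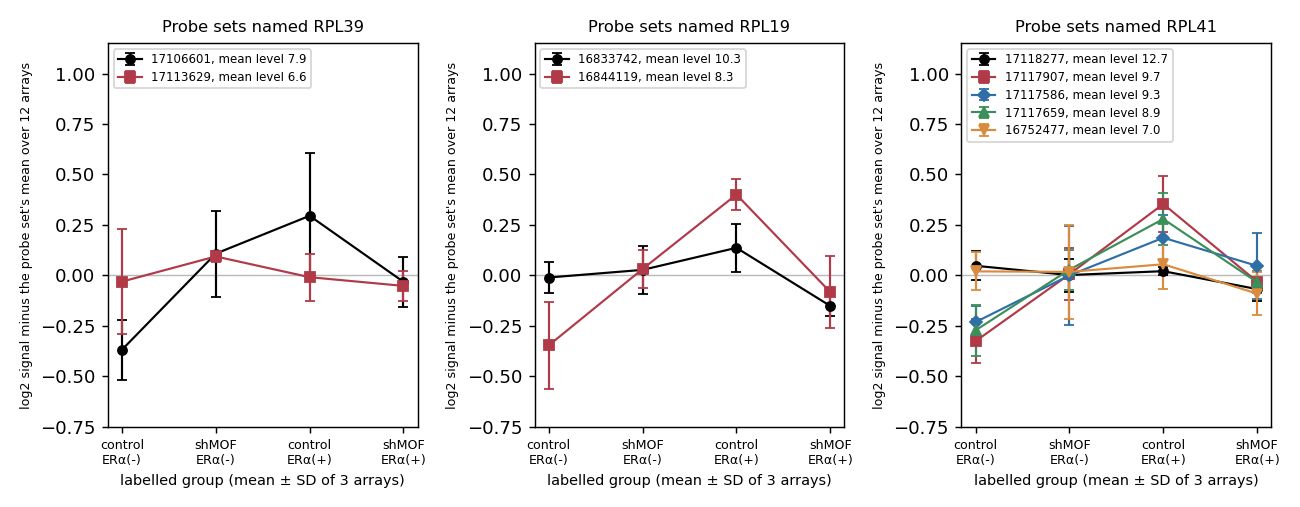
Group means ± SD of 3 arrays (log2 signal minus the probe set's own mean over the 12 arrays) for every probe set named RPL39, RPL19 or RPL41; black marks the set that stood for the gene. For RPL19 and RPL41 dimmer sets show a larger step from control ERα(-) to control ERα(+) than the chosen ones, up to 0.75 and 0.68, while for RPL39 the chosen set shows the step (0.66) and the other does not (0.022).

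The identifiers of this platform follow the chromosomes, and 7 of the 53 coding genes (13.2%; RPL10, RPL12, RPL31, RPL41, RPS18, RPS27 and RPS28) were represented by a probe set with 0 of its 20 nearest named neighbours on the gene's own chromosome. Over all tested genes 42 (0.282%) were so placed. The neighbours of the RPS27 set all belonged to chromosome 12, whereas the gene lies on chromosome 1. What these probe sets detect was not tested.

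The other genes of the translation machinery lay on both sides of 0. The 10 measured translation factors and related genes with TOP messages had medians of -0.052, 0.050, -0.089, -0.0040 and 0.078 over the 5 comparisons, with 0 called. EEF2, which moves the ribosome along the message, stood at -0.19 and EEF1A1, which delivers aminoacyl-tRNA, at 0.03 for shMOF in ERα(+). In that comparison 1 of the 10 lay higher at an unadjusted p below 0.05, NAP1L1, a histone chaperone, at 0.48 ± 0.20, and 1 lower, EEF1G, a subunit of the exchange factor for EEF1A, at -0.29 ± 0.13 (10.2% and 8.51% of all genes). EEF1G, named after its values were seen, stood at 0.22, -0.29, 0.29, -0.21 and -0.51 over the 5 comparisons, on the side of the ribosomal medians. The medians of its list lay on the other side in all comparisons but that of ERα among shMOF arrays. The 5 comparisons rest on the same group means, so their signs are not separate observations. The 44 measured genes of ribosome biogenesis and RNA polymerase I had medians of 0.0036, -0.015, 0.029, 0.062 and -0.011. For shMOF in ERα(+) 9 of them lay higher (10.2% of all genes) and 6 lower (8.51%) at an unadjusted p below 0.05, with 0 called. The 12 measured genes that control ribosomal protein messages or respond to nucleolar stress had medians of -0.029, -0.0024, -0.012, 0.0056 and 0.030, also with 0 called, and MYC, an activator of ribosome synthesis, stood at -0.18 for shMOF in ERα(+). FAU was the 1 measured ribosome partner outside the rule, and its message encodes a small subunit protein fused to a ubiquitin-like one. For shMOF in ERα(+) FAU was at -0.26 ± 0.14 (adjusted p 0.302). Its values had the signs of the ribosomal medians, at 0.036, -0.26, 0.070, -0.23 and -0.30 over the 5 comparisons. The SE was 0.19 for the interaction and 0.14 for the others, so the values of 0.036 and 0.070 lay well within it.

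The 73 mitochondrial ribosomal protein genes had medians with the same signs as the cytosolic ones: 0.068, -0.18, 0.14, -0.057 and -0.24. The genes on the same side of 0 as the median numbered 53, 54, 55, 53 and 56 in the same order, with 0 called. Coding members with and without a tract near the start had like medians. For shMOF in ERα(+) the 37 with a tract within 5 bases stood at -0.13 and the 11 without at -0.17, and for ERα in control arrays at 0.12 and 0.094. For the markers of other cells, the 3 stromal genes had medians of 0.039, -0.0083, -0.054, -0.14 and -0.047 and the 4 immune or endothelial genes 0.20, -0.15, 0.054, -0.24 and -0.29, with 0 called, and the epithelial genes 0.065, -0.34, 0.21, -0.094 and -0.41.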

How the data were processed

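The authors' deposited values are on a log2 scale; per the submitters' processing notes they used Affymetrix Expression Console 1.4.1 and the RMA method. RMA corrects background, equalises the arrays' distributions and can compress dim signals. The genome build was not given in the sources used here. Of 53617 probe sets per array, the platform annotation named 16098, and 37519 stayed unnamed. For the 779 genes with several probe sets, the one with the highest mean over 12 arrays was taken, without a filter on dim genes. Group means were fitted to 14884 genes with limma 3.58.1 in R 4.3.3 (lmFit, eBayes, two-sided, 8 residual and 5.6 prior degrees of freedom), with Benjamini-Hochberg adjustment over all genes within a comparison. With 3 arrays against 3 an exact test cannot go below 0.1, and the number of arrays limits the precision. No pairing of the arrays by replicate number was stated, and the main fit used none.

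The members, lists and alternatives were chosen with earlier results of these data known. Genes named are KAT8, ESR1, members of known role where measured, the 4 coding genes with the smallest p in a comparison, the paralogues with their parents, the extremes of level and spread, and the 3 pseudogene symbols with the smallest p; RPS23, RPL36A-HNRNPH2 and the single genes of the lists were named after their values were seen. Lists were ribosome partners, TOP translation factors, ribosome biogenesis, control of ribosomal messages, mitochondrial ribosomal proteins, MDM2 binders, Diamond-Blackfan anaemia genes and epithelial, stromal and immune markers. A planned list of small nucleolar RNAs in ribosomal introns was not analysed here. Tested on simulated data over the 14884 genes, limma recovered 85% of changes of 1 log2 unit for shMOF in ERα(+) and 50% for the interaction. The simulated noise was independent between genes, unlike that of these arrays, and changes below 1 log2 unit were not simulated. The largest difference of a coding gene was -0.81, in the interaction. Recovery of differences of the size described here is thus not known.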

Additional observations from a re-analysis of the deposited data

Results flagged for a closer look

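RPL28 and RPS27 were flagged because ERα(+) minus ERα(-) ran opposite ways in control and shMOF arrays without overlap. All control ERα(+) arrays lay above all control ERα(-) arrays, and all shMOF ERα(+) arrays lay below all shMOF ERα(-) arrays. For RPL28 the nearest shMOF arrays read 6.222 in ERα(+) and 6.236 in ERα(-). The interaction was -0.55 for RPL28 (adjusted p 0.219) and -0.26 for RPS27 (adjusted p 0.368), so by limma neither difference passed the threshold. Of the 80 symbols that fit the rule 2 ran opposite ways in this sense, beside 204 of all tested genes (1.37%). For shMOF minus control in the 2 ERα conditions the same pattern held for 0 of the 80, beside 187 of all tested genes (1.26%). RPS27 read 12.06, 11.94 and 11.79 in control ERα(-), 11.97 to 12.04 in shMOF ERα(-), 12.18, 12.07 and 12.07 in control ERα(+), and 11.96, 11.90 and 11.91 in shMOF ERα(+). Its nearest arrays read 12.071 in ERα(+) and 12.058 in ERα(-) among controls, and 11.962 and 11.972 among shMOF arrays. The RPS27 probe set is among those placed away from the gene's own chromosome, and what it detects was not tested.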

How the results depend on the processing

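The medians over the coding genes kept their sign in all 28 alternatives of each group comparison and all 27 of the interaction. Array quality weights called 1, 6, 1 and 12 of the 53 coding genes. These were for shMOF in ERα(-), shMOF in ERα(+), ERα in control and the interaction, in that order. Of all 14884 tested genes the same fits called 645, 1629, 217 and 3258. Under any other setting 0 coding genes were called. The first principal component itself differed between the groups. Adding it to the fit gave medians of -0.0099 (shMOF in ERα(+)), 0.0099 (ERα in control), -0.0094 (ERα in shMOF) and -0.022 (interaction). Leaving out 1 array at a time, the median ran from -0.22 to -0.10 for shMOF in ERα(+). The cause was not tested. A replicate block called 0 coding genes, left the median for shMOF in ERα(+) at -0.14 and called 2 of all genes in the interaction. After the group means were removed, same-numbered arrays correlated at -0.179 to 0.453, and 3 of 12 arrays correlated best with their own number. Chosen after seeing the data were the lowest probe set of a gene and leaving out the 7 genes apart in the identifier order.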
